A study of Mus musculus with 10 samples.

Results

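The genes described here are 139 of the 18223 genes in the deposited table: those that its pathway column places on a cell cycle map, leaving out the DNA replication map and 9 named genes. Of the 155 genes with a cell cycle map, 7 were left out because they also lie on the DNA replication map and 9 by name (Trp53, Mdm2, Cdkn1a, Cdkn1b, Myc, Tgfb1, Tgfb2, Tgfb3 and Smad3). The rule used annotation only and no measured value, though it was set with earlier results of these data known. The mammalian map holds 111 of the 139. A further 25 carry only the yeast map, among them condensin and phosphatase subunits, and 3 (Clpp, Clpx and Lonp2) only a bacterial map on which they stand as proteases. The label of regulators outside replication is therefore loose at its edges: origin factors such as Cdc6, Cdc45 and the Orc genes are members, and the 3 proteases are not known as cell cycle regulators of animal cells.

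The samples are 10 subcutaneous tumours of MC38, a mouse colon carcinoma cell line. The 5 tumours labelled HTB (high tumour burden) carry the treatment entry 2000000 for 14 days, and the 5 labelled LTB (low tumour burden) the entry 500000 for 14 days. These figures are read here as injected cell numbers and days of growth. Mouse strain, sex and age are not given in the labels, nor is it stated that each library came from a separate animal, so p-values measure the spread between these libraries. RNA came from whole tumour, and a lower level can mean fewer cells of a type or less RNA per cell, which cannot be told apart.

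Totals ranged from 23070917 to 27185168 estimated reads per library. Levels are given as CPM, reads scaled to a common library total, so they compare libraries and not genes of different length. HTB replicate 2 stood apart: its summed level over 8 skeletal muscle markers was 13274 CPM, against 4.01 to 61.2 CPM in the other 9 libraries, and over 6 adipocyte markers 3099 CPM, against 25.4 to 59 CPM. LTB replicate 1 had the highest sum over 8 T cell markers, 199 CPM, where the other LTB libraries had 45.7 to 91.8 and HTB 16.7 to 44.5 CPM. T cell markers fell in HTB (6 of 8 passed), as did 2 of 8 macrophage markers, where 7.51% of all genes tested were lower in HTB. Of the epithelial markers expected of a carcinoma line, Krt8, Krt18, Krt19 and Cldn4 were at or near 0, and Epcam did not exceed 1.82 CPM in any library. Cdh1 had 3.45 ± 1.45 CPM in HTB and 8.9 ± 4 CPM in LTB, and was lower in HTB (adjusted p = 0.0332, edgeR). The label of a carcinoma line therefore has little support from these markers, and the identity of the line was not tested.

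The cell cycle is driven by kinases (CDKs) that act only when bound to a cyclin. D-type cyclins with CDK4 or CDK6, then cyclin E with CDK2, phosphorylate the retinoblastoma protein family and release E2F factors, which switch on genes for DNA synthesis. Cyclin A and cyclin B with CDK1 then carry the cell into mitosis, where the spindle checkpoint holds back the anaphase-promoting complex until chromosomes are attached. CDK inhibitors, WEE1 kinases and the DNA damage kinases brake these steps. Transcripts of some of these genes, such as the mitotic cyclins, are made mainly in cycling cells.

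A small subset of the members differed between the groups, and all of that subset was lower in HTB. Of the 139 members, 131 had enough reads to be tested, 7 were lower in HTB and 0 were higher (adjusted p under 0.05 by edgeR's quasi-likelihood fit, with the Benjamini-Hochberg procedure applied over all 13469 genes tested). The 7 are the activator E2F genes E2f1 and E2f2, the retinoblastoma-like gene Rbl1, the kinase gene Cdk4, the CDK inhibitor gene Cdkn2d, the helicase factor gene Cdc45 and the DNA damage kinase gene Atm. Across all genes tested the test called 11.4%, with 7.51% lower and 3.91% higher in HTB, while it called 5.34% of the members. Of the members, 25 had an unadjusted p under 0.05, and over all genes 29.1% did. DESeq2 called 13 members, 8 lower and 5 higher (Abl1, Anapc4, Cdkn2c, Smad4 and Wee1), or 9.56% of the 136 to which it gave an adjusted p, beside 17.5% of all genes (9.94% lower and 7.56% higher). The authors' deposited table gives a q under 0.05 to 12 members, 4 higher and 8 lower, or 8.63% beside 14.5% of all genes.

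The sizes were small. The median log2 fold change (HTB over LTB) of the tested members was -0.02, and of all genes tested 0.02. The 7 that fell lay between -0.56 and -0.24, and 1 of the 131, Gadd45b, had a fitted change beyond 1.5-fold (0.763%, against 14.6% of all genes tested). Members are mostly well expressed, which matters for this comparison. Among the 4701 tested genes whose mean level lay between the members' quartiles, the median size of the log2 change was 0.12 and the median within-group SD 0.14 on the log2(CPM + 1) scale. Both figures were the same for the members, at 0.12 and 0.14, while 10.6% of those 4701 genes passed.

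**Figure D1:**
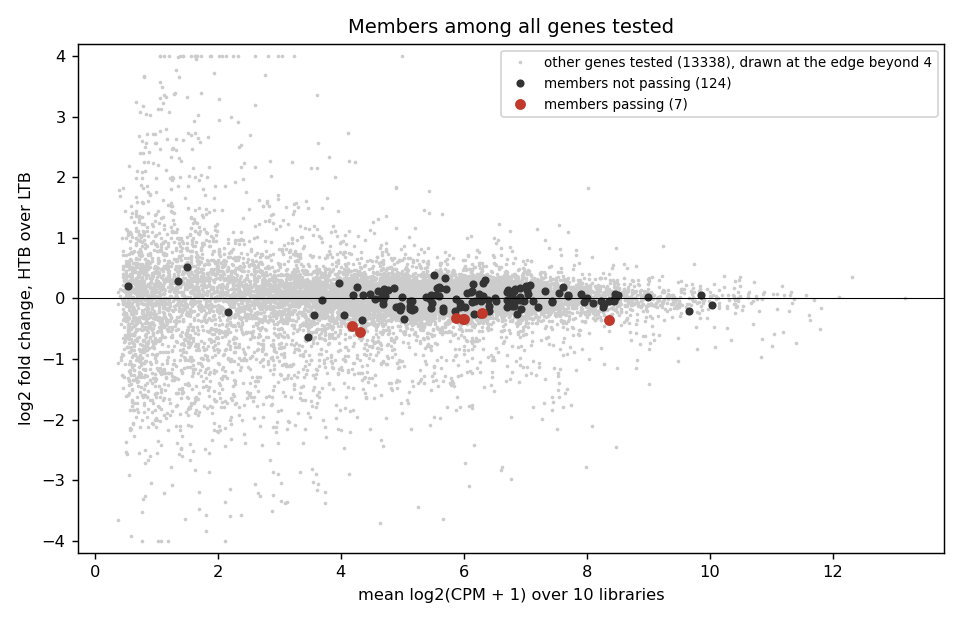
Log2 fold change of HTB over LTB against the mean log2(CPM + 1) of the 10 libraries for each gene tested, with other genes in grey, members that did not pass in black and members that passed in red. The members form a narrow band around 0, with the 7 red points between -0.56 and -0.24.

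Genes of the RB and E2F group held 3 of the 7. Of 13 tested members 3 fell, 0 rose and 10 did not pass, with a median log2 fold change of -0.05 (all genes 0.02). Over all genes tested 7.51% fell and 3.91% rose, and the counts of the groups below stand beside these same shares. E2f2, an activator that drives entry into DNA synthesis, had the smallest p of any member. Its levels were 16.2, 16.4, 15.3, 15 and 14.6 CPM in HTB replicates 1 to 5 and 23.1, 20.8, 22.7, 21.6 and 26 CPM in LTB replicates 1 to 5. Every HTB library lay below every LTB library, and the HTB values were the tighter. The log2 fold change was -0.56 ± 0.08 with its SE (adjusted p = 0.0029, edgeR), and the group levels were 15.5 ± 0.771 and 22.9 ± 1.99 CPM (SD, n = 5 each).

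E2f1, the best-known activator of the family, stood at 57.3, 57.4, 57.6, 54.1 and 50.6 CPM in HTB and at 75.2, 67.9, 64.3, 69.3 and 73.9 CPM in LTB. The groups did not overlap, and the gap between the highest HTB and the lowest LTB library was narrower in proportion than for E2f2. The fold change was -0.34 ± 0.06 (adjusted p = 0.0086, edgeR). Both E2f1 and E2f2 passed under all 18 alternatives tried. Rbl1 encodes p107, a relative of the retinoblastoma protein whose own gene is an E2F target. It had 72.5, 69.3, 74, 72.3 and 69.2 CPM in HTB and 75.4, 85.6, 94.3, 80.4 and 86.8 CPM in LTB. LTB replicate 1 came close to the HTB range without entering it. Rbl1 changed by -0.24 ± 0.06 (adjusted p = 0.0353), and it lost its call without HTB replicate 1, 3, 4 or 5 (adjusted p of 0.0633, 0.0711, 0.0787 and 0.0788) or LTB replicate 2, 3 or 5 (0.0651, 0.0747 and 0.0694), with no change of sign in any of these edgeR fits.

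The other members of the group did not pass. Rb1, the retinoblastoma gene itself, stood at -0.17 ± 0.07 (adjusted p = 0.1166), with 33.6 ± 1.79 CPM in HTB and 37.8 ± 2.45 CPM in LTB (SD, n = 5 each). Tfdp1, the dimerisation partner of the E2F factors, stood at -0.05 ± 0.08 (169 against 175 CPM). The third retinoblastoma family gene, Rbl2, typical of resting cells, stood at 0.10 ± 0.13. The other E2F genes, E2f3, E2f4 and E2f5, had fitted values of -0.12, -0.05 and 0.02, with standard errors of 0.11, 0.08 and 0.10. Abl1, a tyrosine kinase that binds the retinoblastoma protein, ranged from 133 to 156 CPM in HTB, against 110 to 133 CPM in LTB, where the values that round to 133 do not overlap, with an adjusted p of 0.0662. It was named because it completes a count: together with Anapc4 and Smad4 it makes the 3 members whose HTB values all lay above LTB, while 7 members lay wholly below. Over all genes tested, 11.7% had groups that did not overlap, 7.06% lower and 4.68% higher in HTB.

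**Figure D2:**
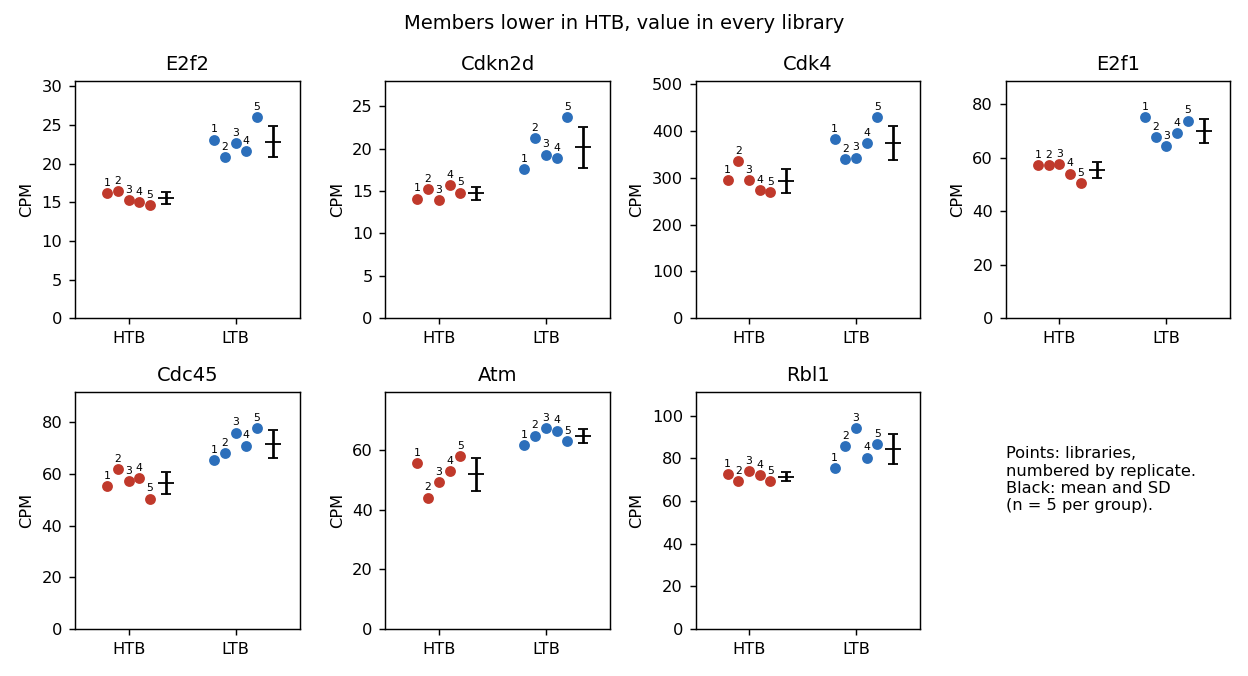
CPM in each library for the 7 members lower in HTB, with the replicate number at each point, HTB in red, LTB in blue, and the group mean with its SD in black (n = 5 each). In each panel the 5 HTB points lie below the 5 LTB points, with E2f2 at 14.6 to 16.4 against 20.8 to 26 CPM.

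Among the cyclin-dependent kinases 1 of 5 fell and 0 rose, with a median log2 fold change of -0.15. Cdk4, the kinase partner of the D-type cyclins, had 295, 335, 294, 274 and 269 CPM in HTB and 383, 340, 343, 374 and 429 CPM in LTB. HTB replicate 2 lay just under the lowest LTB library, and the other 4 HTB libraries lay clearly lower. The change was -0.35 ± 0.08 (294 ± 25.9 against 374 ± 36.1 CPM, SD, n = 5 each; adjusted p = 0.0255, edgeR). The call was lost without HTB replicate 3 (adjusted p = 0.0638), 4 (0.0711) or 5 (0.0608). Cdk6, which has the same partners, did not pass, at 268 ± 26.8 and 281 ± 20.5 CPM (log2 fold change -0.07 ± 0.08, adjusted p = 0.6216). Whether Cdk4 and Cdk6 differ from each other in their change was not tested.

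Cdk2, the partner of cyclin E, and Cdk1, the mitotic kinase, did not pass with all libraries, and both turned on HTB replicate 2. Cdk1 had 90.4, 123, 98.5, 95.4 and 82.6 CPM in HTB and 109, 109, 113, 104 and 110 CPM in LTB. The highest of the 10 values was that of HTB replicate 2, and the other 4 HTB libraries all lay below LTB. Its log2 fold change was -0.15 ± 0.09 (adjusted p = 0.3043), and without HTB replicate 2 it was -0.25 (adjusted p = 0.0193, edgeR). Cdk2 stood at 66.8 CPM in HTB replicate 2 and at 48 to 52.8 CPM in the rest of HTB, against 54.7 to 72.6 CPM in LTB. Cdk2 stood at -0.20 ± 0.11 (adjusted p = 0.2463) with all libraries and at -0.29 (adjusted p = 0.0340) without that one.

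None of the 9 cyclin genes tested passed in either direction (edgeR; 2 had an unadjusted p under 0.05, and DESeq2 called 0). Their median log2 fold change was -0.15. Ccnd1, which encodes cyclin D1, had 820, 859, 758, 755 and 607 CPM in HTB and 912, 857, 945, 853 and 801 CPM in LTB. HTB replicates 1 and 2 lay inside the LTB range and the other HTB libraries below it, and the change was -0.20 ± 0.09 (adjusted p = 0.1741). Ccnd2 had almost the same mean in both groups, 259 ± 10.6 and 258 ± 41.2 CPM (log2 fold change 0.01 ± 0.10, adjusted p = 0.9715). The cyclin D genes used most by blood cells, Ccnd2 and Ccnd3, were both highest in LTB replicate 1, the library with the highest T cell marker sum. That library also had the highest sums over 5 neutrophil markers (85.3 CPM) and 5 B cell markers (6.02 CPM). Ccnd3 had 169 CPM there, 108 to 133 CPM in the other LTB libraries and 99.5 to 117 CPM in HTB (log2 fold change -0.26 ± 0.12, adjusted p = 0.1709). Ccnd2 had 324 CPM there and 219 to 264 CPM in the other LTB libraries. The part of T cells, or of any other cell type, in these values was not tested.

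The cyclin E genes, which work at the start of DNA synthesis, were spread unevenly. Ccne1 had 34.6 CPM in LTB replicate 1, 17.6 to 23 CPM in the other LTB libraries and 12 to 21.7 CPM in HTB (-0.36 ± 0.21, adjusted p = 0.2874). Ccne2 had 14.2 ± 1.58 CPM in HTB and 17.2 ± 1.73 CPM in LTB (-0.27 ± 0.10, adjusted p = 0.1065), and passed without HTB replicate 2 at -0.34 (adjusted p = 0.0330). The cyclins of mitosis overlapped widely between the groups. Ccna2 had 272, 347, 316, 280 and 242 CPM in HTB and 274, 327, 344, 309 and 366 CPM in LTB, with HTB replicate 5 lowest and LTB replicate 5 highest (-0.15 ± 0.11, adjusted p = 0.3688). Ccnb1 stood at 89.8 ± 11.4 and 92.4 ± 10 CPM (-0.04 ± 0.10, adjusted p = 0.8118).

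**Figure D3:**
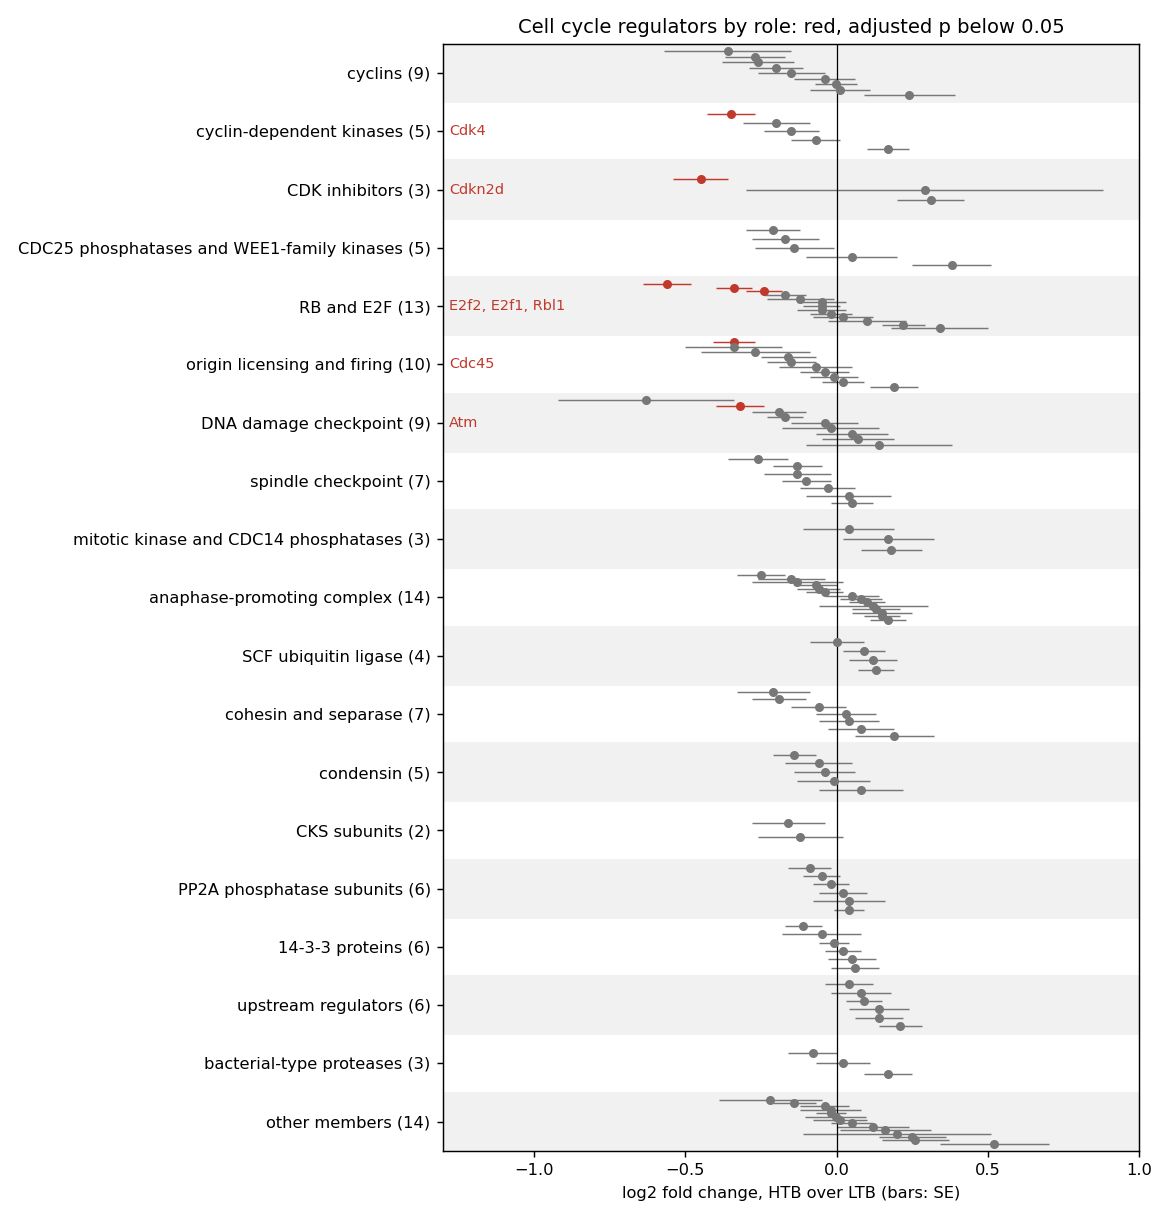
Log2 fold change of HTB over LTB with its SE for the 131 tested members, grouped by role, with the number tested in parentheses. The 7 members that passed are red and named at the left of their row, and rows of the mitotic machinery hold none of them.

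Of the CDK inhibitors, 3 of 5 could be tested and 1 fell. Cdkn2d (p19INK4d), which blocks CDK4 and CDK6, was the one that fell. It had 14.1, 15.2, 13.9, 15.7 and 14.8 CPM in HTB and 17.6, 21.2, 19.3, 18.9 and 23.7 CPM in LTB. The groups did not overlap, and HTB was the tighter of them. The change was -0.45 ± 0.09 (adjusted p = 0.0131, edgeR), and it passed under all 18 alternatives. Cdkn2c (p18INK4c), which inhibits the same kinases, had higher means in HTB, with 98.6, 76.3, 97.3, 84.3 and 95.8 CPM there and 57.4, 82.9, 71.4, 79.2 and 74.3 CPM in LTB. HTB replicate 2 lay inside the LTB range, and the change of 0.31 ± 0.11 did not pass (adjusted p = 0.0869), though it did without that library (0.37, adjusted p = 0.0284) and by DESeq2 (adjusted p = 0.0406). Cdkn2a and Cdkn2b, the INK4 genes most often deleted in tumours, were too low to test. Cdkn2a had 15 reads over the 5 HTB libraries and 29 over the 5 LTB libraries, and Cdkn2b 52 and 47 reads. Cdkn1c (p57KIP2) was low too, with 5.02 CPM in HTB replicate 2, where the rest of HTB had 0.623 to 2.27 CPM and LTB 1.03 to 3.48 CPM. Its fitted value changed from 0.29 to -0.40 when HTB replicate 2 was left out and passed in neither fit (adjusted p of 0.7749 and 0.5540).

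The gate into mitosis is set by CDC25 phosphatases, which activate CDK1, and by WEE1-type kinases, which hold it inactive. None of 5 tested members passed (2 had an unadjusted p under 0.05, and DESeq2 called Wee1). Wee1 had 40.1, 43.3, 48, 60.2 and 63.8 CPM in HTB and 34.8, 39.3, 40.2, 37.2 and 45.2 CPM in LTB. HTB replicates 4 and 5 were high, and replicates 1 and 2 lay inside the LTB range. The change was 0.38 ± 0.13 (adjusted p = 0.0903), or 0.43 without HTB replicate 2 (adjusted p = 0.0387). Cdc25b stood at -0.17 ± 0.11 (115 ± 5.57 against 129 ± 22.4 CPM). Its lowest value, 92 CPM, belonged to LTB replicate 1, and without that library it was -0.27 (adjusted p = 0.0260).

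Of the 10 genes for origin licensing and firing, 1 fell and 8 had fitted values below 0, with a median of -0.11. Cdc45, which encodes a subunit of the active replicative helicase at fired origins, had 55.3, 61.8, 57.3, 58.3 and 50.5 CPM in HTB and 65.3, 68.1, 76.1, 71 and 77.9 CPM in LTB. No HTB library reached the LTB range. The change was -0.34 ± 0.07 (adjusted p = 0.0143, edgeR), and it passed under 17 of the 18 alternatives. Cdc6, the loader of the helicase onto origins, had the same fitted value, -0.34 ± 0.16, but a wide spread in HTB, with 39.5 CPM for replicate 2 and 19.4 to 29.5 CPM in the others, against 32.1 to 39.7 CPM in LTB (adjusted p = 0.1795). Without HTB replicate 2 it was -0.49 (adjusted p = 0.0163). Dbf4, the activating subunit of the origin-firing kinase, stood at -0.01 ± 0.08 (108 ± 11.8 and 109 ± 6.01 CPM). Orc5, a subunit of the origin recognition complex, was at 0.19 ± 0.08 (adjusted p = 0.1372) and passed only without LTB replicate 5 (0.25, adjusted p = 0.0408).

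Of the 9 DNA damage checkpoint genes 1 fell. Atm, the kinase that signals double-strand breaks, had 55.7, 44, 49.1, 52.8 and 57.9 CPM in HTB and 61.6, 64.8, 67.4, 66.5 and 63.1 CPM in LTB. HTB replicate 2 was the lowest of all, and LTB kept within a few CPM. The change was -0.32 ± 0.08 (adjusted p = 0.0245, edgeR). It was lost without HTB replicate 3 (adjusted p = 0.0705) or 4 (0.0591) and without LTB replicate 3 (0.0592) or 4 (0.0566). Its sister kinase Atr stood at -0.17 ± 0.06 (adjusted p = 0.1050), and the checkpoint kinases Chek1 and Chek2 at -0.19 ± 0.09 and 0.07 ± 0.12. Gadd45b, a stress-induced gene, had the lowest fitted value of any member, -0.63 ± 0.29 (adjusted p = 0.1721), with 21.4 CPM in LTB replicate 1, 8.44 to 13.1 CPM in the other LTB libraries, 13.1 CPM for HTB replicate 2, and from 5.46 up to 8.37 CPM for the rest of HTB.

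Genes that run mitosis itself did not pass in any group. The spindle checkpoint held 7 tested genes with a median of -0.10, the mitotic kinase Plk1 and the CDC14 phosphatases 3 with a median of 0.17, the anaphase-promoting complex 14 with a median of 0.07, cohesin and separase 7 with a median of 0.03, and condensin 5 with a median of -0.04. Over these lists 0 genes passed by edgeR, 4 had an unadjusted p under 0.05, and DESeq2 called Anapc11 and Anapc4. Bub1, a checkpoint kinase at the kinetochore, had 66.6, 73.6, 72.7, 76.7 and 60.6 CPM in HTB and 67.4, 92.3, 92.8, 80.1 and 87.4 CPM in LTB. LTB replicate 1 fell among the HTB values and the other 4 LTB libraries lay above them, at -0.26 ± 0.10 (adjusted p = 0.1068) and at -0.33 without LTB replicate 1 (adjusted p = 0.0304). Bub1b, which encodes the checkpoint protein BUBR1, had 71.2 CPM in LTB replicate 1 and 103 to 129 CPM in all the other libraries, at 0.04 ± 0.14. Mad2l1, the inhibitor of the anaphase-promoting complex, stood at 103 ± 14 and 105 ± 5.54 CPM, and Bub3, which binds the checkpoint kinases, at -0.13 ± 0.08.

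Plk1, a kinase of spindle assembly, had 69.5, 107, 88.5, 74.9 and 64.4 CPM in HTB and 64.2, 86.9, 82.4, 67.5 and 92.3 CPM in LTB. Its highest value was that of HTB replicate 2, and the groups overlapped (0.04 ± 0.15). Cdc20, the activator that the checkpoint blocks, had 87.8, 131, 118, 97.9 and 91.4 CPM in HTB and 83.4, 122, 114, 116 and 143 CPM in LTB (-0.13 ± 0.15). Among the core subunits of the complex, Anapc11, its RING subunit, stood at -0.25 ± 0.08 (adjusted p = 0.0583; -0.28 and 0.0324 without HTB replicate 2), Anapc4 at 0.17 ± 0.06 (0.0680; 0.19 and 0.0384 without that library), and Anapc5 at 0.08 ± 0.07. Pttg1, the securin that restrains separase, stood at -0.19 ± 0.09 (32.3 ± 1.64 against 37 ± 4.72 CPM), the cohesin subunit gene Rad21 at 0.03 ± 0.10 (516 ± 43.7 against 506 ± 67.4 CPM), and the condensin subunit gene Smc4 at -0.04 ± 0.10. Cdc14a, a phosphatase that reverses CDK phosphorylation, stood at 0.18 ± 0.10.

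**Figure D4:**
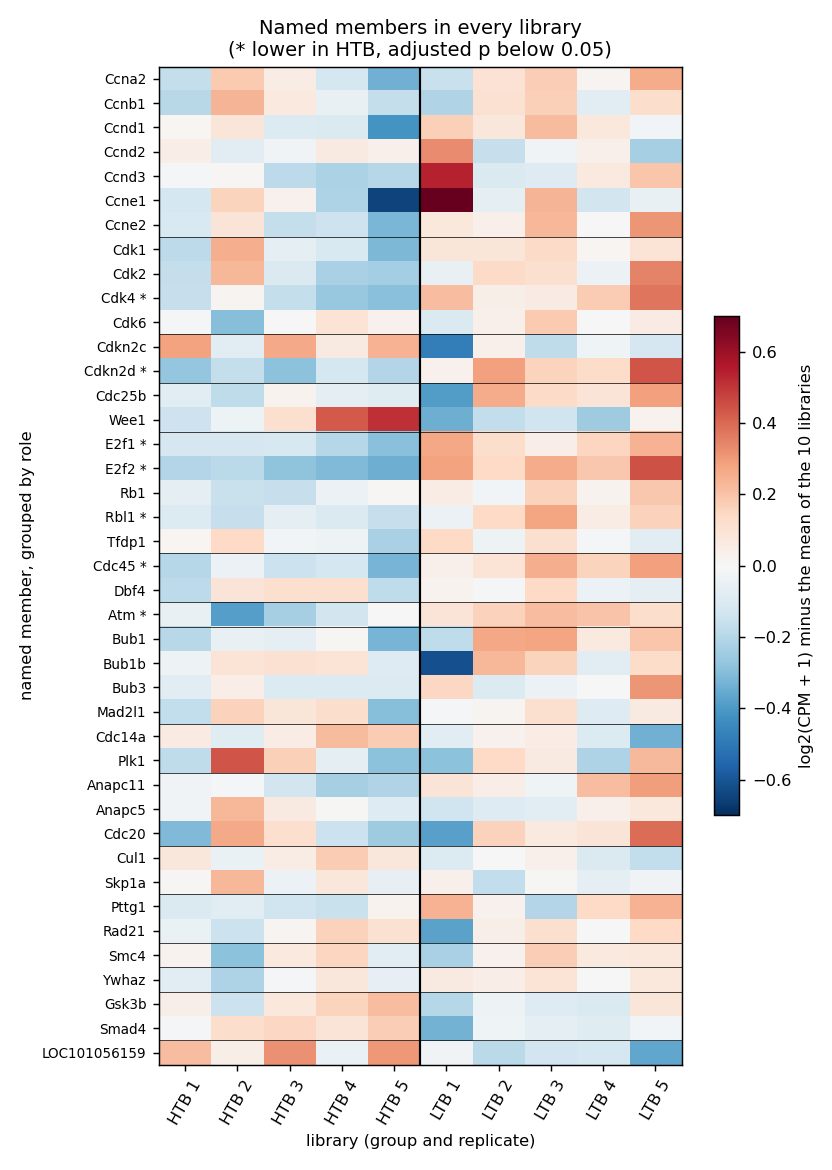
The 41 named members that were tested, one row each and grouped by role, as log2(CPM + 1) minus the mean of the 10 libraries, with HTB left and LTB right of the line and stars on the 7 members lower in HTB. The starred rows mostly change colour at the line, with Rbl1 in LTB replicate 1 and Cdk4 in HTB replicate 2 among the exceptions. LTB replicate 1 departs from the other LTB libraries in rows such as Ccne1, Ccnd3, Bub1b and Cdkn2c.

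In the remaining groups 0 members passed by edgeR. None of the 4 SCF ubiquitin ligase genes passed (median 0.11), with the scaffold gene Cul1 at 0.13 ± 0.06 (adjusted p = 0.1753) and the adaptor gene Skp1a at 0.09 ± 0.07. Genes of the 14-3-3 proteins, which sequester CDC25 and other phosphorylated proteins, lay between -0.11 and 0.06, with Ywhaz at -0.11 ± 0.06 (1014 ± 74.2 and 1095 ± 26.8 CPM). The 6 tested subunits of the phosphatase PP2A lay between -0.09 and 0.04. Of 6 upstream regulators none passed, though all had fitted values above 0. Smad4, the common partner of TGF-beta-activated SMADs, had 128, 140, 142, 137 and 145 CPM in HTB and 102, 126, 123, 121 and 127 CPM in LTB, so that the groups did not overlap (0.21 ± 0.07, adjusted p = 0.0758), and Gsk3b, a kinase that marks cyclin D for destruction, stood at 0.14 ± 0.08. LOC101056159, a predicted gene placed on the mammalian map, stood at 0.52 ± 0.18 (adjusted p = 0.0941) with 1.2 to 2.53 CPM, and a predicted gene can share reads with near-identical copies, so its value is uncertain. Over these 4 named groups, without LOC101056159, edgeR called 0 genes, 1 had an unadjusted p under 0.05 and DESeq2 called Smad4. The 8 members too low to test were Wee2, Cdkn2a, Cdkn2b, Ppp2r2b, Ppp2r2c, Smc1b, Dyrk4 and Gm16505, with at most 30 reads in any library.

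The member counts turned on HTB replicate 2, the library rich in muscle and fat transcripts. Without it 14 members were lower and 10 higher in HTB, or 18.3% of 131, beside 22.4% of all genes (12.7% lower and 9.77% higher). The same 7 genes passed, and 17 were added. The added lower genes were Cdk1, Cdk2, Ccne2, Cdc6, Cks2, Anapc11 and Gadd45b, and the added higher genes Wee1, Cdkn2c, Tfdp2, Abl1, Cdk7, Anapc4, Ep300, Nipbl, Aktip and Mob1b. In all 17, HTB replicate 2 lay on the LTB side of the mean of the other 4 HTB libraries, which follows from the way they were found. For instance Nipbl, the cohesin loader, had 74.6 CPM in HTB replicate 2, where the rest of HTB had 120 to 144 CPM and LTB 100 to 114 CPM, and without that library stood at 0.30 (adjusted p = 0.0126). Over all 131 members HTB replicate 2 was the highest of the 10 libraries in 22 and the lowest in 21. LTB replicate 1 was the highest in 19 and the lowest in 30, HTB replicate 5 the lowest in 37, and LTB replicate 5 the highest in 31. The part of muscle, fat or T cells in these orders was not tested.

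**Figure D5:**
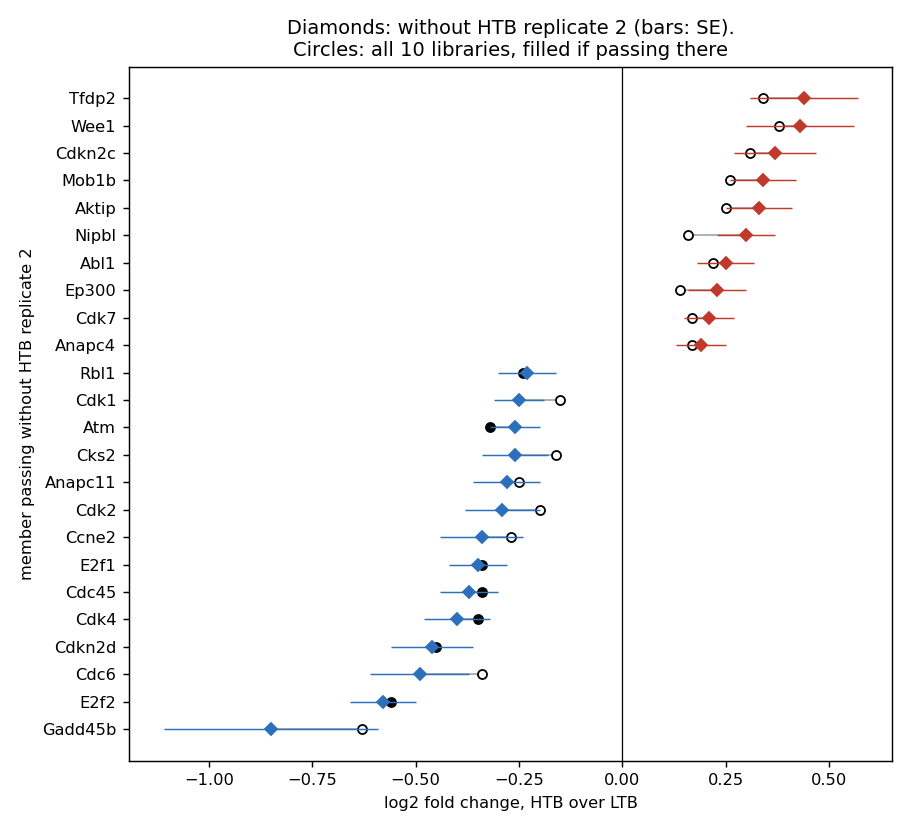
Log2 fold change of HTB over LTB for the 24 members that passed without HTB replicate 2, as diamonds with their SE, beside the value with all 10 libraries as circles, filled where that value passed. The 14 lower members include the 7 filled circles, and the 10 higher members are all open circles.

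Over 13 mitotic members (Ccna2, Ccnb1, Ccnb2, Cdk1, Cdc20, Cdc25c, Plk1, Bub1, Bub1b, Ttk, Mad2l1, Espl1 and Pttg1, a list drawn up after the values were seen), the summed level was 1078, 1387, 1265, 1183 and 1026 CPM in HTB and 1047, 1326, 1329, 1195 and 1417 CPM in LTB. The libraries ranged widely within each group, and the groups overlapped. LTB replicate 1 was the lowest of the LTB libraries in 10 of these 13 genes. Of the 7 members that fell it was also the lowest of LTB for Rbl1, Cdkn2d, Cdc45 and Atm, and it was not for E2f1, E2f2 and Cdk4.

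Genes of the pathway outside the members were listed separately. Of the 16 pathway genes left out, 3 fell and 0 rose, where 7.51% of all genes tested fell and 3.91% rose. The 3 were Pcna, the sliding clamp of DNA polymerases (-0.36 ± 0.07, adjusted p = 0.0090, edgeR), Cdkn1a, which encodes the CDK inhibitor p21 (-1.01 ± 0.17, adjusted p = 0.0065), and Tgfb1 (-0.49 ± 0.08, adjusted p = 0.0052). The 6 Mcm genes of the replicative helicase did not pass, with fitted values from -0.37 (Mcm3) to -0.10 (Mcm2). Of 30 mitotic genes that the cell cycle map does not hold, 0 passed by edgeR (5 had an unadjusted p under 0.05), 24 had fitted values below 0, and the median was -0.10. Their fitted values ran from -0.40 (Ube2c and Mybl2, adjusted p of 0.0681 and 0.0759, edgeR) to 0.11 (Kif20a). Fbxo5 had the smallest adjusted p, 0.0514 (-0.30 ± 0.09), and its groups did not overlap. Mki67, the gene of the Ki-67 antigen used to count dividing cells, stood at 484 ± 58.3 CPM in HTB and 472 ± 109 CPM in LTB (0.04 ± 0.16). It was among the 6 genes with fitted values above 0. LTB replicate 1 had 302 CPM of Mki67 and the other LTB libraries 429 to 572 CPM.

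The promoters of the members were searched for elements that textbooks give for cell cycle genes. RefSeq windows (GRCm38.p6) from 250 bases before to 50 after a start site were at hand for 112 of the 139 members. Some genes have several start sites, and a form in any of their windows was counted for the gene. The E2F element was searched in its common form TTCCCGC and in the variant forms TTCGCGC together with TTGCCGC along with TTGGCGC, and the CHR element, bound by the repressor complex of resting cells and by activators of mitotic genes, in the form TTTGAA and its variant TTCGAA, both on either strand. An E2F form occurred in 31 of the 112 (27.7%), against 10.9% of all 27025 genes with a window, and a CHR form in 35 (31.2%), against 21.7%. Those 27025 genes were not matched to the members in expression level or base composition. Of the 7 members that fell, 3 held an E2F form (E2f2, Rbl1 and Atm) and 2 a CHR form (E2f2 and Cdc45). For E2f2 the E2F form lay in the window starting at 136172024 on chromosome 4, and the CHR form in another, starting at 136180532. That other window opens with protein-coding bases of E2f2, so its CHR form says little about the main promoter. The E2F forms of E2f2 and Atm lay after the start site, at 41 and 16 bases, and that of Rbl1 before it. E2f1 held neither form, but its window includes protein-coding bases of E2f1, so this says little about its main promoter. Among members that did not pass 26.3% held an E2F form. Counting genes with a window, a CHR form occurred in 4 of 7 spindle checkpoint genes and an E2F form in 5 of 10 origin genes. Other role lists varied. A CHR form occurred in 2 of 13 anaphase-promoting complex genes and in 2 of 3 proteases. An E2F form occurred in 3 of 4 condensin genes and in 3 of 6 cohesin and separase genes. Whether these shares differ between members that fell and the others was not tested.

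Of these promoters 5 are printed to show the elements beside the values given above, with E2F and CHR forms in capitals, each as the 250 bases before the start site, 5′ to 3′ along the gene. Rbl1 and Cdc45 fell, Cdk1 passed only without HTB replicate 2, and Cdc20 and Ccnb1 did not pass.
Rbl1 (chr2:157204535-157204784, minus strand): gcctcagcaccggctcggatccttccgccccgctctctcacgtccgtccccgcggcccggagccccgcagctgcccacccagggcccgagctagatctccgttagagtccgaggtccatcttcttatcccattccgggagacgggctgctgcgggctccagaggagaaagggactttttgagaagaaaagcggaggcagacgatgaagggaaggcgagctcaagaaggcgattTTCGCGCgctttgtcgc
Cdc45 (chr16:18811973-18812222, minus strand): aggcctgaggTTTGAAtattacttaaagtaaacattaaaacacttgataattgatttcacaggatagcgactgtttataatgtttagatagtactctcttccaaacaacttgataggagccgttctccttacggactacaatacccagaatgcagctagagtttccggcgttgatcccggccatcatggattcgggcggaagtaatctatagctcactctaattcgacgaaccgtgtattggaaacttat
Cdk1 (chr10:69352913-69353162, minus strand): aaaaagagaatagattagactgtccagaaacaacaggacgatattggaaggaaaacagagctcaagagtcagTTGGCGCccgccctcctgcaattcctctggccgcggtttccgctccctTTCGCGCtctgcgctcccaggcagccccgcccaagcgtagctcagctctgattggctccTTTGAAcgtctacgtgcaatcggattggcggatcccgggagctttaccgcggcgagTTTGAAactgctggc
Cdc20 (chr4:118437344-118437593, minus strand): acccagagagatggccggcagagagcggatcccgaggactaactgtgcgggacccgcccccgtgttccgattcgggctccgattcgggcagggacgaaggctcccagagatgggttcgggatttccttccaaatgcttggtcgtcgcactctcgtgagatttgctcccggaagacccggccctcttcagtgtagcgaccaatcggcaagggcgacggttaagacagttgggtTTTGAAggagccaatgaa
Ccnb1 (chr13:100786487-100786736, minus strand): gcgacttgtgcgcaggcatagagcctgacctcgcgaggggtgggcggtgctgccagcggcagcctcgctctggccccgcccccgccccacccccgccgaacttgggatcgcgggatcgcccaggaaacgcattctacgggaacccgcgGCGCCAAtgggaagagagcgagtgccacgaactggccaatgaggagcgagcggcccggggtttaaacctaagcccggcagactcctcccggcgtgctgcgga
Rbl1 has 1 E2F form that begins 17 bases before the start site. Cdk1 holds 2 E2F and 2 CHR forms, the CHR forms beginning 71 and 15 bases before the start. Cdc20 has 1 CHR form at 18 bases and Ccnb1 1 E2F form, read on the opposite strand, at 102 bases. Cdc45 has a CHR form 240 bases before its start site, another on the opposite strand 11 bases into the part after it that is not printed, and no E2F form of these letters in the window.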

How the data were processed

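RNA-seq of 10 whole MC38 tumours was analysed. Per the labels' protocols, an RNeasy kit was used for RNA and a SMARTer kit for mRNA libraries. Per the submitters' processing notes, reads were placed on GRCm38 (mm10), while aligner, counter and use of strand are not stated here, which leaves overlapping and antisense genes uncertain. The authors deposited a table of estimated counts per gene, unscaled, of whose values 86.4% were whole within 1e-09. These were rounded to whole numbers. The table also holds the authors' log2 fold change and q-value, which the column headers attribute to DESeq2, and these deposited values are quoted only where named. The 1 row that names no gene was dropped.

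Groups were compared by the quasi-likelihood fit of edgeR 4.0.16 (R 4.3.3), with TMM factors of 0.975 to 1.03, filterByExpr, group as the only term, all 10 libraries and Benjamini-Hochberg adjustment over all genes tested. The SE of a log2 fold change was taken as its size divided by the square root of the test's F. CPM used the TMM-scaled totals. The test was also run on simulated counts with the means and totals of this comparison (13799 genes, 50 changed at each size). It recovered 40% of genes changed 1.5-fold and 78% of those changed 2-fold, and 2.52% of calls were false. Smaller changes, like those of most members, were not simulated, nor was an outlying library. Genes were drawn independently with their estimated spreads. The changed ones came from all levels above a low cut, so these shares are not those for the members. Replicates all differed by more than sampling noise. Alternatives were DESeq2 1.42.0, limma voom (limma 3.58.1), other scaling factors and filters, a block for the replicate number, and fits without each library in turn.

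The members, role lists and marker lists were chosen with earlier results of these data known. Lists for condensin, PP2A, CKS and the proteases were added from the table's annotation, and the promoter elements after the values were seen. Named members were those that passed, the smallest p and the highest mean in each role list and 17 core genes. Others named (Rbl2, E2f3, E2f4, E2f5, Abl1, Anapc4, Cdkn2b, Cdkn1c, Cdc6, Orc5, Atr, Chek1, Chek2, Gadd45b, Nipbl and those that complete a count) were chosen after their values were seen. Intervals and error estimates rest on reads without molecular identifiers.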

Additional observations from a re-analysis of the deposited data

Results flagged for a closer look

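Within a group of 5, single libraries stood far from the rest for 5 of the 42 named members, over 84 groups of values. Among independent, normally spread groups the rule would mark about 1 group in 20, a share close to the one found. The groups here come from the same libraries and are not independent, so that likeness is no test of chance. In HTB replicate 2, Bub3 had 116 CPM where the other HTB libraries had 105 to 106, Cdk2 had 66.8 CPM where they had 48 to 52.8, Cdk6 had 223 CPM where they had 273 to 293, and Cdkn2a had 0.29 CPM where they had 0.0364 to 0.11. Cdkn2a was too low to test, with 1 to 8 reads per library. In LTB replicate 1, Smad4 had 102 CPM where the other LTB libraries had 121 to 127. Of these 5 values 4 belong to HTB replicate 2, the library with 13274 CPM over the skeletal muscle markers. The part of muscle or fat in them was not tested.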

How the results depend on the processing

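Depth was even, so the limits lie in the spread between 5 libraries a group and in the small sizes of the changes. No call of a named member changed sign. E2f1, E2f2 and Cdkn2d passed under all 18 alternatives, Cdc45 under 17 (all but the replicate block, adjusted p = 0.0599, edgeR), Cdk4 under 14, Atm under 13 and Rbl1 under 9. The members lower in HTB numbered 4 to 14 when single libraries were left out (7 with all), those higher 0 to 10, and all genes passing 736 to 3040 (1537 with all); the low counts of 4 came without HTB replicate 3 or 4, the high ones without HTB replicate 2, and 1 higher member, Orc5, came without LTB replicate 5. DESeq2 gave 5 higher members and 2510 genes in all. Without HTB replicate 2 and LTB replicate 1 together, an alternative chosen after seeing the data, 19 members were lower, 9 higher and 2908 genes passed, and Ccna2 and Cdc20 passed, lower (adjusted p of 0.0438 and 0.0492). With the replicate number as a block, 3 members were lower (E2f1, E2f2 and Cdkn2d) and 971 genes passed. The labels do not say that equal numbers pair libraries; same-numbered libraries correlated at 0 to 0.11 in their deviations from the group means, and 1 of 5 HTB libraries matched its own number best.

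Cdkn1c, which was not among the members named by rule, turned from 0.29 to -0.40 without HTB replicate 2. Among the 41 tested members named by rule, the signs that turned belonged to members that passed in no fit. Bub1b was -0.08 without LTB replicate 1 and -0.09 with HTB replicate 2 also left out. Plk1 was -0.08 without HTB replicate 2, -0.03 and -0.01 without LTB replicate 1 or 4, and -0.14 without HTB replicate 2 and LTB replicate 1. Rad21 was -0.01 without HTB replicate 4, -0.05 without LTB replicate 1 and -0.01 without both libraries named above. Ccnd2 was -0.0022 and -0.01 without HTB replicate 1 or 4 and -0.03, -0.00031 and -0.05 without LTB replicate 2, 3 or 5. Dbf4 was 0.0026 with no filter, 0.04 and 0.03 without HTB replicate 1 or 5 and 0.02 without LTB replicate 3. Mad2l1 was 0.01 and 0.03 without HTB replicate 1 or 5, Ccnb1 0.0012 without HTB replicate 1, and Smc4 0.02 without HTB replicate 2. At the other end of the leave-one-out range stood Ccnb1 at -0.11, Ccnd2 at 0.10, Dbf4 at -0.04, Mad2l1 at -0.07, Rad21 at 0.07 and Smc4 at -0.10. The cause was not tested.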
